A study of Lithobates clamitans with 20 samples.

Results

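Gut transcripts of green frog tadpoles (Lithobates clamitans) were screened for genes whose abundance differed between warm and cool colonized tadpoles while the mean difference between warm and cool depleted tadpoles was small. Normalized CPM were counts scaled to a common library total, after each total was multiplied by its TMM factor from edgeR. To be a member, a gene needed no count of 0 in any library and a mean normalized abundance under 1000 CPM. Its log2 CPM could not overlap between the warm and the cool colonized tadpoles, whose mean log2 CPM had to differ by at least 0.8. The mean log2 CPM of warm and cool depleted tadpoles had to differ by less than 0.3 in either direction. Of 8477 genes, 31 met this rule, of which 18 had a higher mean in warm than in cool colonized tadpoles (raised members) and 13 a lower one (lowered members). The members were chosen by the log2 CPM of all 20 tadpoles, so the differences between warm and cool tadpoles within each colonization group are given as a description and not as a test.

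The gut of a tadpole holds a dense microbial community that ferments plant food and supplies its host with nutrients, and the community differs with the water in which the animal grows. Tadpoles are ectotherms, so their body temperature follows that of the water, and warming alters the transcription of genes for protein folding, metabolism and tissue renewal in many vertebrates. Whether the response of the host to heat depends on its microbes is asked by the interaction of temperature and colonization, given below. A gene with a difference in 1 colonization group alone does not answer it.

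There were 5 tadpoles in each of 4 groups, with 1 library of the gut per tadpole. All were offspring of a single pair of adults and were reared individually at 22°C, the colonized tadpoles with untreated pond water and the depleted tadpoles with autoclaved pond water. Depleted tadpoles were not free of microbes, since earlier bacterial sequencing cited by the paper found a less diverse gut community in them. Warm tadpoles were then moved to another chamber at 32°C for 24 h, while the others stayed at 22°C. Temperature can therefore not be told apart from the chamber or from the move. The tadpoles sequenced were chosen by the study to be alike in size and stage. By animal code, cool colonized tadpoles (C22) were C2201, C2204, C2206, C2207 and C2208, warm colonized tadpoles (C32) were C3204, C3205, C3207, C3208 and C3210, cool depleted tadpoles (D22) were D2201, D2202, D2203, D2206 and D2209, and warm depleted tadpoles (D32) were D3202, D3203, D3205, D3206 and D3207. Values are listed in that order below. The code was read as C or D for colonized or depleted and 22 or 32 for the temperature. The treatment fields of the sample records match the codes for C22 and D32 and interchange the other groups, giving cool depleted for the C32 tadpoles and warm colonized for the D22 tadpoles. If the fields are right, the members are genes that differed between colonized and depleted tadpoles at 22°C and by less than 0.3 at 32°C, and the wording by code does not apply.

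Libraries held between 11102195 and 22922461 counts. The median total was 16533610 in C22, lower than the 21918522 in C32, 21154306 in D22 and 21707665 in D32. The factors of edgeR's TMM scaling ran from 0.697 to 1.25 in C22, 0.973 to 1.25 in C32, 0.682 to 1.03 in D22 and 0.878 to 1.29 in D32. D3203 and D3202 had the most genes at 0, with 1002 and 910, against 490 to 850 in the other 18 libraries. The lowest count of any member in any library was 5 for the raised and 20 for the lowered members. Reads were mapped to the draft bullfrog genome, a related species, whose gene identifiers are not paired with gene names in the file, so roles, pathways, cell type markers and sequences of the members were not analysed here. Each library came from a part of the gut, which the study split while trying to spread its sections evenly. In such mixed tissue, fewer cells of a type and less RNA per cell cannot be told apart.

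**Figure D1:**
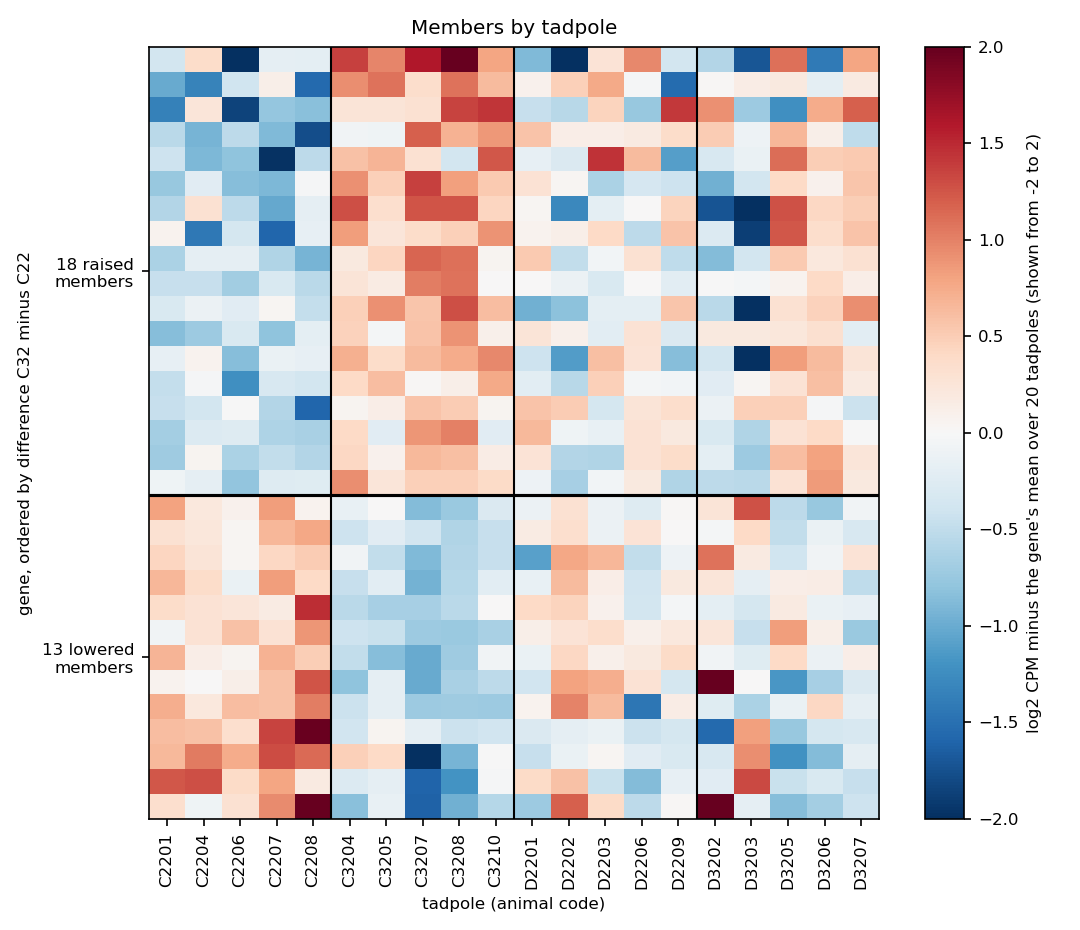
Log2 CPM of the 31 members (rows, ordered by the difference C32 minus C22) in the 20 tadpoles (columns, by group), each minus the gene's mean over all tadpoles, with red above and blue below that mean. The C22 and C32 blocks are mostly of opposite color, since the rule keeps their values apart. The D22 and D32 blocks are mixed, and D3202 and D3203 are mostly blue in the 18 raised members.

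The rule narrowed the table in steps. Over all 8477 genes, C32 and C22 did not overlap in 562 (6.63%), with C32 higher in 3.33% and lower in 3.3%. No count of 0 was found for 6487 genes, and 6364 of these had a mean under 1000 CPM. Among them, C32 and C22 did not overlap for 497 genes, and 302 of these differed by at least 0.8, 162 higher and 140 lower in C32. Most of these 302 genes differed in the same direction in depleted tadpoles. Of the 162 higher genes, 141 had a difference of at least 0.3 in the same direction between D32 and D22, 3 had one of at least 0.3 in the opposite direction, and the 18 members (11.1%) lay in between. Of the 140 lower genes, 125 had such a difference in the same direction and 2 in the opposite direction, leaving the 13 members (9.29%). Most genes with a difference in colonized tadpoles thus had one of the same sign in depleted tadpoles. With colonized and depleted exchanged in the rule, 723 genes reached the first threshold and 207 of these (28.6%) had a difference under 0.3 in colonized tadpoles, 113 raised and 94 lowered, against 31 of 302 (10.3%) here.

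**Figure D2:**
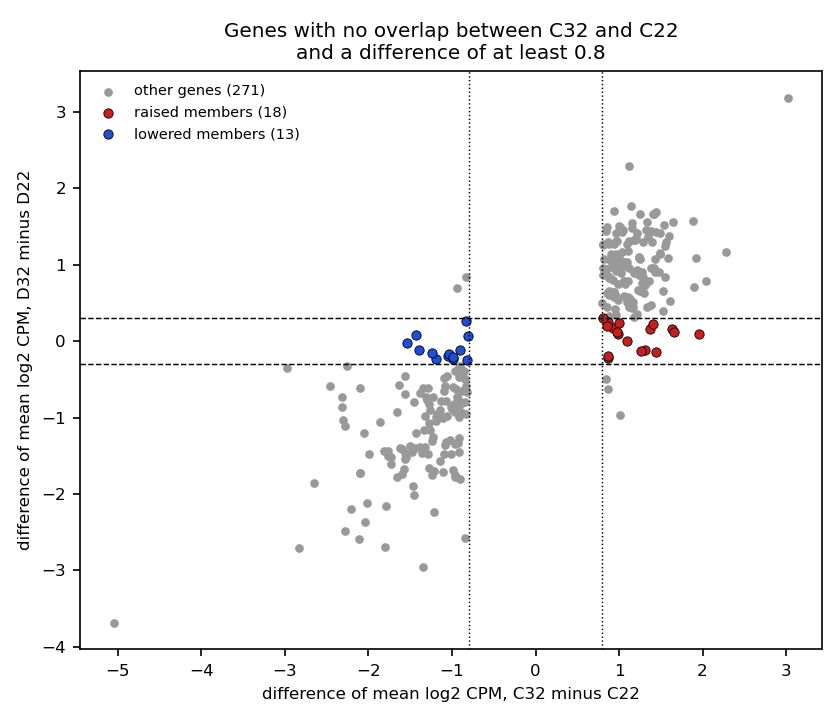
Difference of mean log2 CPM between C32 and C22 (horizontal) and between D32 and D22 (vertical) for the 302 genes that did not overlap between C32 and C22 and differed by at least 0.8, with 1 point per gene. The 18 raised (red) and 13 lowered (blue) members lie between the dashed lines at 0.3 and −0.3, and most other genes lie in the upper right or the lower left.

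Among raised members the difference of mean log2 CPM between C32 and C22 ran from 0.81 to 1.96, with a median of 1.05, and that between D32 and D22 from −0.22 to 0.30, with a median of 0.12. Over all 8477 genes these medians were 0.01 and 0.00041. Among lowered members the difference between C32 and C22 ran from −1.54 to −0.81, with a median of −1.04, and that between D32 and D22 from −0.25 to 0.26, with a median of −0.15. D32 was above D22 in 13 of 18 raised members and below it in 10 of 13 lowered members, beside 4242 of all 8477 genes above and 4235 below, and these counts follow in part from the rule, which kept one end of a set that mostly differed that way. Mean abundance ran from 1.68 to 771 CPM in raised and from 3.59 to 290 CPM in lowered members, with medians of 14.5 and 19.7 CPM beside 13.9 CPM over the 6364 genes from which they were drawn. These levels are not corrected for gene length.

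The thresholds passed through close neighbors. The smallest difference among raised members was 0.81, and the largest of the genes kept out by that threshold alone was 0.77. For lowered members these values were −0.81 and −0.79. Between D32 and D22 the largest difference of a raised member was 0.298 and the next gene outside had 0.310, while for lowered members they were 0.262 and −0.320. The distance between the C32 and C22 ranges was as small as 0.011 on the log2 scale in a raised member and 0.069 in a lowered member, and the nearest genes left out had distances of −0.016 and −0.018, a negative distance being an overlap. Without the condition on overlap, 93 raised and 75 lowered genes would have met the rule.

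The raised members with the widest difference between C32 and C22 were AB205_0031230 and AB205_0165170. AB205_0031230 had 45.2, 75.8, 10.6, 51.5 and 51.2 normalized CPM in C22 and 151, 116, 178, 279 and 101 in C32. It had 31.7, 11.7, 71.1, 114 and 45.4 normalized CPM in D22 and 38.8, 17.7, 125, 22.0 and 101 in D32. Every warm colonized tadpole was above every cool colonized one, as the rule requires. Depleted tadpoles fell in both ranges at both temperatures, 7 in the cool colonized range and 3 in the lower part of the warm one. The means were 46.9 ± 23.4 (SD, n = 5) in C22 and 165 ± 70.4 in C32, and the mean log2 CPM differed by 1.96, or 3.90-fold. In depleted tadpoles the means were 54.7 ± 39.4 and 61.0 ± 49.1, and the mean log2 CPM differed by 0.10. The low value of C2206 weighed on this gene, whose difference between C32 and C22 was 1.49 without that tadpole. Its difference between D32 and D22 changed sign without D2202, to −0.36.

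AB205_0165170 was much less abundant, at 0.675, 0.518, 1.09, 1.59 and 0.431 CPM in C22 and 2.89, 3.23, 1.91, 3.22 and 2.32 in C32, with as few as 5 counts in a library. In depleted tadpoles it had 1.56, 2.07, 2.55, 1.45 and 0.437 CPM in D22 and 1.49, 1.64, 1.69, 1.27 and 1.66 in D32. The 5 warm depleted tadpoles were close together and all below the lowest warm colonized tadpole, and all 5 lay within the range that the cool depleted tadpoles spanned. The mean log2 CPM differed by 1.66 between C32 and C22, which is 3.16-fold, and by 0.12 between D32 and D22.

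The lowered members with the widest difference were AB205_0000035 and AB205_0003830. AB205_0000035 had 279, 209, 274, 428 and 922 normalized CPM in C22 and 124, 199, 71.7, 113 and 149 in C32, and C2204 and C3205 nearly met. It had 134, 504, 288, 154 and 224 in D22 and 1106, 195, 123, 138 and 166 in D32. D3202 was above every other tadpole of the series, and the other 4 warm depleted tadpoles lay within the range of the warm colonized ones. The mean log2 CPM was lower by 1.54 in C32 than in C22, a 2.92-fold difference, and differed by −0.03 between D32 and D22. Without D3202 and D3203 the latter was −0.72.

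AB205_0003830 had 17.3, 17.9, 9.48, 12.7 and 8.27 normalized CPM in C22 and 5.97, 6.37, 2.32, 3.13 and 7.14 in C32, a 2.70-fold difference of the mean log2 CPM. It had 9.49, 10.999, 5.28, 3.93 and 6.496 in D22 and 6.16, 18.3, 5.33, 5.84 and 5.26 in D32. Here D3203 was the tadpole that stood apart, above all cool colonized tadpoles, while the other 4 warm depleted tadpoles were within the warm colonized range. The difference between D32 and D22 was 0.08, and −0.30 without D3202 and D3203.

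**Figure D3:**
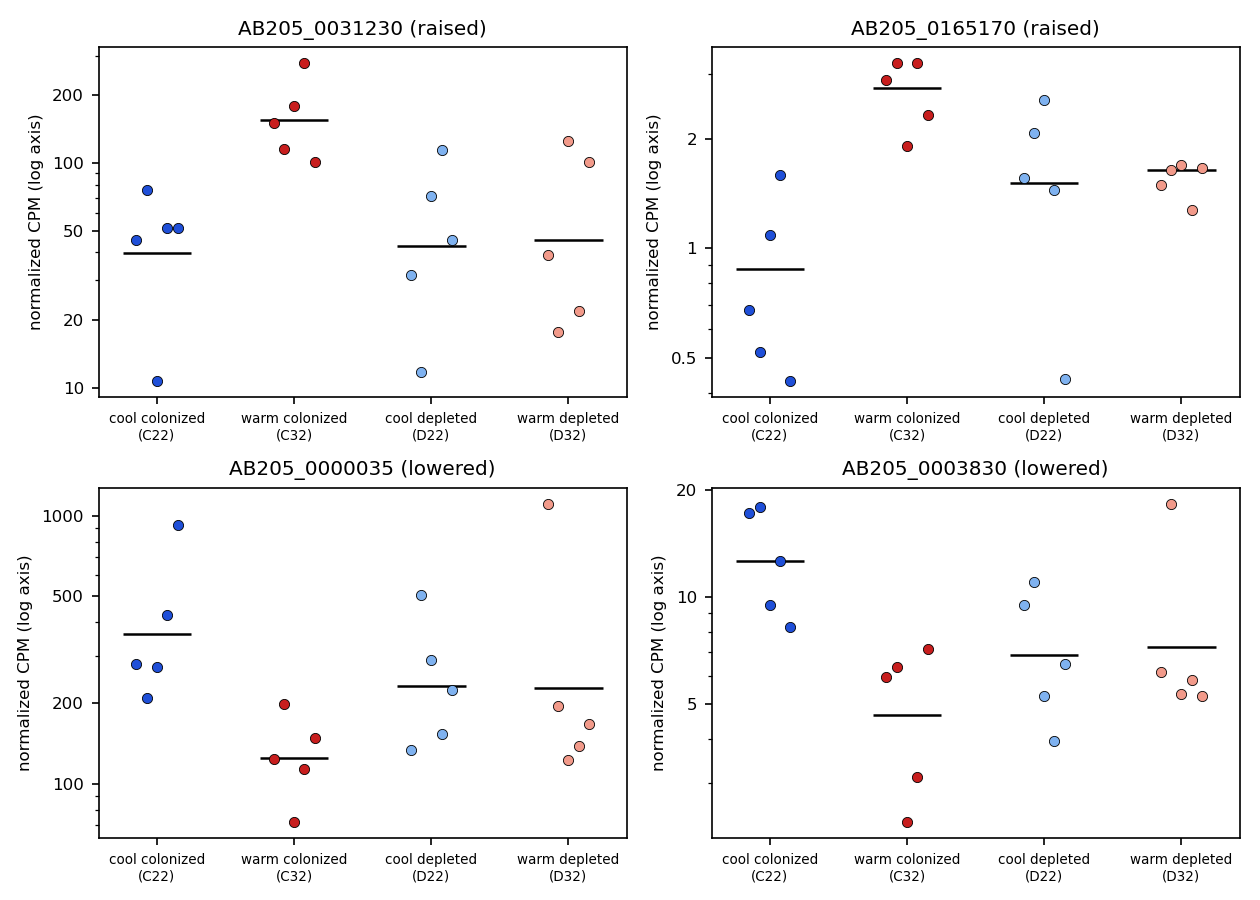
Normalized CPM (log axis) of the 2 raised and the 2 lowered members with the widest difference between C32 and C22, with 1 point per tadpole and a line at 2 to the power of the mean log2 CPM of each group of 5. In both lowered members 1 warm depleted tadpole lies far above the other 4, D3202 at 1106 CPM in AB205_0000035 and D3203 at 18.3 CPM in AB205_0003830.

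Relative to the spread within groups, the ranges of C32 and C22 lay farthest apart in AB205_0067320 and AB205_0089800 among raised members. AB205_0067320 had 9.28, 10.5, 9.81, 11.8 and 8.18 normalized CPM in C22 and 16.01, 21.7, 16.8, 28.1 and 17.7 in C32, a 1.98-fold difference. In D22 it had 5.83, 6.47, 9.96, 9.94 and 16.8 CPM and in D32 7.85, 2.21, 14.2, 15.8 and 21.9. D3202 and D3203 were below every cool colonized tadpole, D3203 at the lowest value of all 20, whereas D3205, D3206 and D3207 were above every cool colonized tadpole. The difference of 0.09 between D32 and D22 became 0.89 without D3202 and D3203. AB205_0089800 had 2.87, 4.20, 2.68, 2.60 and 4.82 CPM in C22 and 9.37, 6.86, 12.9, 8.74 and 7.10 in C32, a 2.59-fold difference, and in D22 6.03, 5.09, 3.15, 3.87 and 3.66 and in D32 2.49, 3.801, 6.56, 5.24 and 7.28. Here too D3202 and D3203 were the lowest warm depleted tadpoles, and the difference of 0.16 became 0.56 without them.

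Among lowered members the ranges lay farthest apart in AB205_0135170 and AB205_0187460. AB205_0135170 had 5.53, 3.86, 5.12, 5.01 and 6.80 normalized CPM in C22 and 2.42, 2.90, 1.95, 1.98 and 1.96 in C32, a 2.28-fold difference, beside 3.46, 6.66, 5.19, 1.16 and 3.66 in D22 and 2.78, 2.11, 2.99, 4.46 and 2.90 in D32. AB205_0187460 had 3.21, 4.14, 5.12, 4.14 and 6.29 in C22 and 2.50, 2.45, 1.999, 1.98 and 2.12 in C32, a 1.99-fold difference, beside 3.66, 4.09, 4.34, 3.64 and 3.93 in D22 and 4.03, 2.41, 6.10, 3.67 and 1.97 in D32. In AB205_0187460 the 5 cool depleted tadpoles were all within the cool colonized range and the warm depleted ones spread from the level of the warm colonized tadpoles almost to the top of the cool colonized range. In both genes, leaving out a single tadpole took the difference between D32 and D22 past the limit of 0.3. In AB205_0135170 it was −0.23, but −0.61 without D2206 and −0.38 without D3206, and in AB205_0187460 it was −0.21, but −0.36 without D3205 and 0.31 with libraries scaled by total counts. Without D3202 and D3203 these differences were −0.05 and −0.14.

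The mean of the warm depleted tadpoles thus summarized animals that were not alike. Per tadpole, the median over the 18 raised members of log2 CPM, centered on each gene's mean over all tadpoles, ran from −0.59 to −0.20 in C22, from 0.30 to 0.86 in C32, and from −0.39 to 0.19 in D22. In D32 it was −0.29 in D3202 and −0.45 in D3203, but 0.44 in D3205, 0.39 in D3206 and 0.25 in D3207. Of the 18 raised members, D3205 was within or above the warm colonized range in 14, of which 1 was above it, D3206 in 13 and D3207 in 12, whereas D3202 and D3203 were within it in 4 each and within or below the cool colonized range in 13 and 11. Both D3202 and D3203 were below the other 3 warm depleted tadpoles in 12 of 18 raised members (66.7%). In the 144 other genes higher in C32 of the 302 this held for 54 (37.5%), and in all 3216 genes with a higher mean in C32 and no count of 0 for 865 (26.9%). This share is not independent of the rule, which used the mean of these 5 tadpoles.

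**Figure D4:**
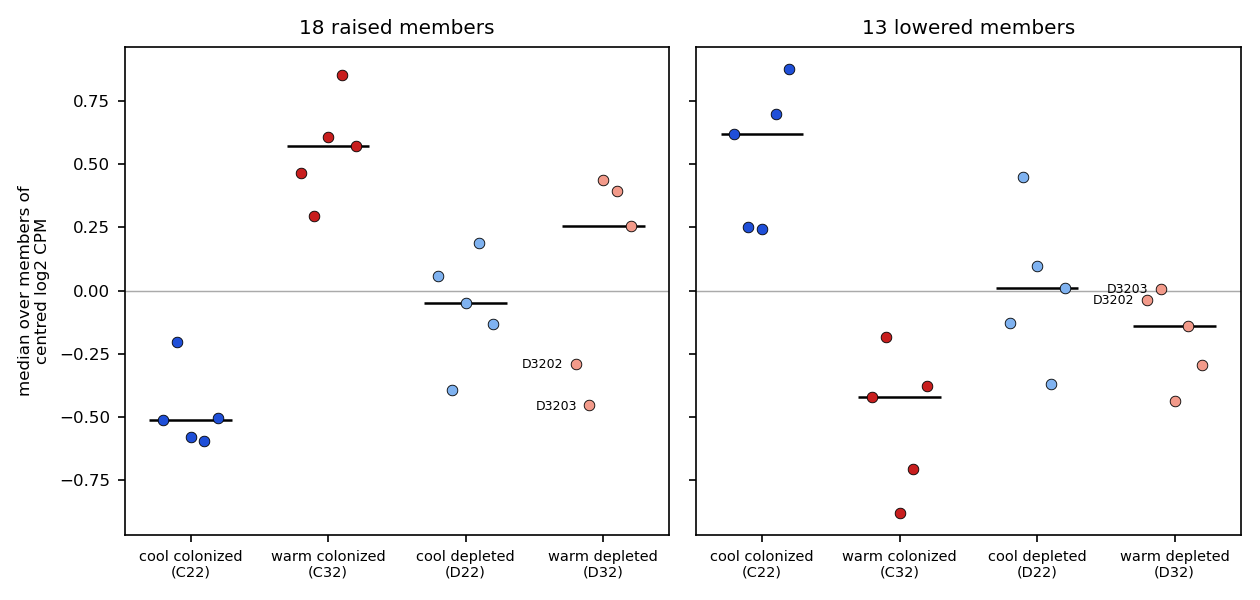
Median over the 18 raised (left) and the 13 lowered (right) members of log2 CPM centered on each gene's mean over the 20 tadpoles, with 1 point per tadpole and a line at the median of each group of 5. In the raised members D3202 and D3203 lie at −0.29 and −0.45, within the cool colonized range, and the other 3 warm depleted tadpoles lie between 0.25 and 0.44.

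D3202 and D3203 are the libraries with the most genes at 0, and they were chosen after seeing the data. The members were also examined without these tadpoles. The median difference between D32 and D22 over the 18 raised members was then 0.50 in place of 0.12, and 12 of the 18 reached at least 0.3 in the same direction as in colonized tadpoles. Over the 13 lowered members the median was −0.20 in place of −0.15, and 6 of 13 reached at least 0.3 in that direction. Over all 8477 genes the median moved from 0.00041 to 0.10 on the scale fixed by all libraries. Of these 8477 genes, 3497 then had D32 above D22 by at least 0.3, 2140 differed by less than 0.3, and all the rest had D32 below D22 by at least 0.3. A difference of 0.3 in one direction was thus common among all genes. Applied anew to the other 18 tadpoles, the rule gave 9 raised and 10 lowered genes, of which 6 and 7 were among the 31 members. Both tadpoles were below the rest of D32 in 12 of the 18 raised members, so a higher median without them is in part fixed by that choice. By the values of single tadpoles given above, the name of genes changed by heat in colonized tadpoles alone describes the group means. It does not describe each depleted tadpole of the raised members. D3202 had the largest total of all libraries, 22922461 counts, and D3203 had 17557653. Over the 144 other genes higher in C32 of the 302, the centered median was 0.29 in D3202 and 0.26 in D3203. It was 0.51 to 0.70 in the rest of D32. Over the 127 other lower genes it was −0.47 and −0.24, and −0.76 to −0.61 in the rest of D32. How far the quality of these libraries bears on the members was not tested.

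In the lowered members the tadpoles of D32 differed among themselves as well. Per tadpole, the median of centered log2 CPM ran from 0.24 to 0.88 in C22, from −0.88 to −0.18 in C32, from −0.37 to 0.45 in D22 and from −0.44 to 0.0058 in D32. Of the 13 lowered members, D3205 was within or below the warm colonized range in 8, D3206 in 9 and D3207 in 10, and D3202 and D3203 in 5 each. Both D3202 and D3203 were above the rest of D32 in 5 of 13 lowered members (38.5%) and below it in 2. Both were above it in 50 of the 127 other genes lower in C32 of the 302 (39.4%), so this was not particular to the lowered members. It held for 784 of all 3148 genes with a lower mean in C32 and no count of 0 (24.9%). Among the 5 cool depleted tadpoles D2206 was within or below it in 9 and D2202 in 2, so cool depleted tadpoles were also unlike each other. The median SD of log2 CPM within D32 was 0.58 over raised and 0.62 over lowered members, beside 0.44 over the 6364 genes, and within D22 it was 0.44 and 0.34 beside 0.43. In 23 of the 31 members (74.2%) the SD was larger in D32 than in D22, which held for 53.7% of the 6364 genes. These values are not independent of the rule, which used the means of both groups.

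The rule did not name a level for the depleted tadpoles relative to the colonized ones, but it chose C22 and C32 means that lie apart, which places most other means between them. The values below are a description for that reason. The depleted mean log2 CPM over both temperatures was placed on a scale on which the C22 mean is 0% and the C32 mean 100%. Among raised members this place ran from −6.19% to 89.2%, with a median of 55.7%. It was below 25% in 4 of 18, including AB205_0031230 at 7.60% and AB205_0067320 at −6.19%, where the means of both depleted groups lay near that of C22. It was above 75% in 3 of 18, including AB205_0196220 at 89.2% and AB205_0210520 at 78.4%, in which the D22 mean already lay near that of C32. The other 11 lay in between. Counted by single values, of the 90 values of raised members in D22, 36 lay within the cool and 36 within the warm colonized range, and of the 90 in D32, 22 and 45. Among lowered members the place ran from 28.2% to 107%, with a median of 47.9%, and 2 of 13 were above 75%, AB205_0206850 at 107% and AB205_0179520 at 89.2%. Of the 65 values of lowered members in each depleted group, 28 in D22 and 16 in D32 lay within the cool colonized range, and 26 and 33 within the warm one. Over the 6364 genes, 36943 of 63640 depleted values lay within the cool and 34239 within the warm colonized range. In those genes the C22 and C32 ranges mostly overlapped, with a median distance of −0.61, so a value could lie in both. Values of different genes come from the same tadpoles and are not separate observations. Over all 302 genes, whose depleted tadpoles mostly differed with temperature, the median was 44.8% for those higher and 46.4% for those lower in C32.

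**Figure D5:**
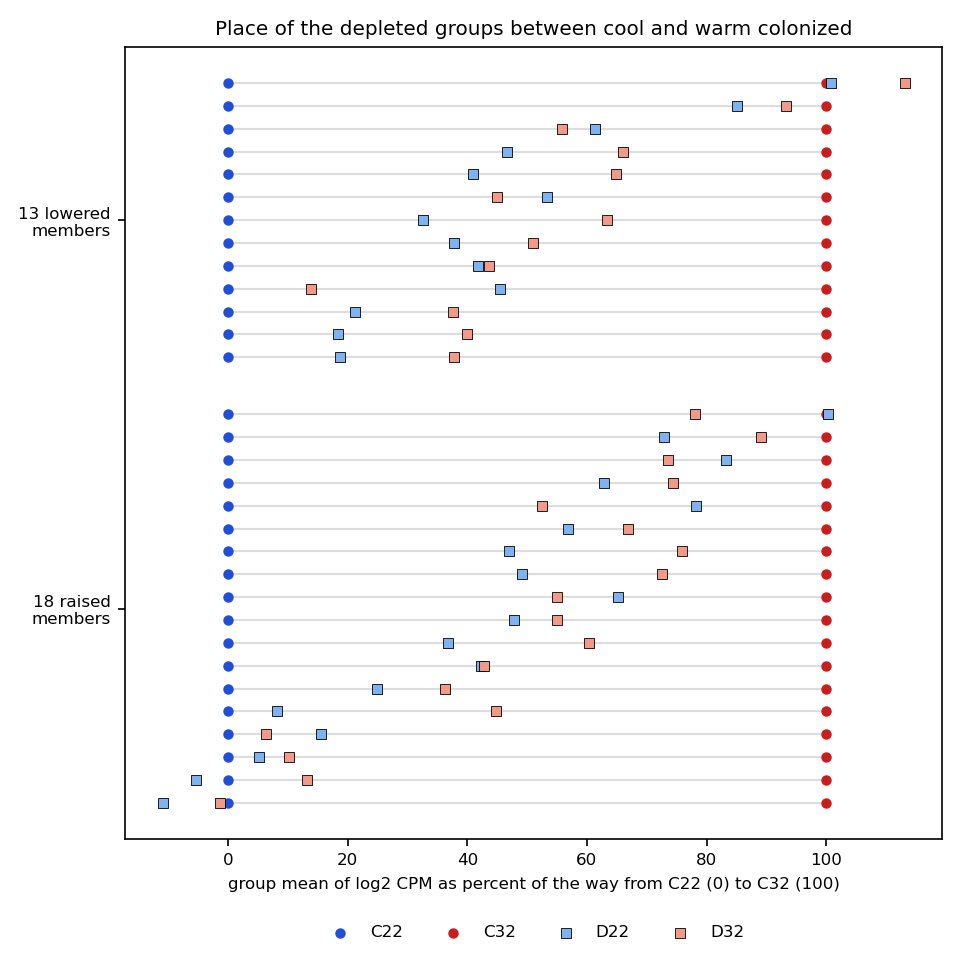
Mean log2 CPM of each group for the 31 members, 1 row per gene, scaled so that C22 is 0% and C32 is 100%, with circles for the colonized and squares for the depleted groups. D22 and D32 lie close together by the rule, and in most members they fall between the colonized groups, with a few raised members near 0% and a few of both lists near or beyond 100%.

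Depleted and colonized tadpoles were compared over both temperatures in a fit of all 20 tadpoles, as the mean of D22 and D32 against the mean of C22 and C32. This contrast is orthogonal to both differences of means that the rule used. The conditions on overlap, counts of 0 and mean CPM used the same libraries, so the comparison is not wholly independent of the rule. The place described above was computed from the same difference of depleted and colonized means. edgeR's quasi-likelihood test called 0 of the 31 members at a Benjamini–Hochberg adjusted p under 0.05, and 0 of all 8477 genes (0%), with a smallest adjusted p of 0.454 among members and 0.0675 among all genes. At an unadjusted p under 0.05 there were 0 raised members (4.15% of all genes were higher and 4.34% lower) and 1 lowered member, against 720 of all genes (8.49%). DESeq2 called 335 genes, edgeR's likelihood ratio test 35 and limma voom 0, and none of these 3 tools called a member. The fitted depleted over colonized log2 fold change had a median of 0.07 over raised and 0.05 over lowered members, beside −0.01 over all genes. As a difference of mean log2 CPM these medians were 0.06 and 0.02, and with libraries scaled by total counts they were −0.13 and −0.18, where that of all genes was −0.205. By the treatment fields, the same contrast compares warm with cool tadpoles, and it called 0 of 8477 genes in the quasi-likelihood test. The paper used edgeR without stating which of its tests, and reported far more genes for temperature than for colonization.

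The member with the smallest p in this comparison was AB205_0206850, a lowered member. It had 16.5, 16.2, 13.6, 27.6 and 42.5 normalized CPM in C22 and 8.16, 11.1, 9.44, 7.91 and 8.24 in C32, and 8.75, 9.43, 9.79, 7.92 and 8.41 in D22 and 3.58, 19.1, 6.29, 8.42 and 8.59 in D32. All 5 cool depleted tadpoles were below all 5 cool colonized ones and close to the warm colonized level, and 9 of the 10 depleted tadpoles were nearer to the C32 than to the C22 mean, with D3203 the exception. The log2 fold change of depleted over colonized was −0.68 with a standard error of 0.25, an unadjusted p = 0.0151 and, over all genes, an edgeR adjusted p = 0.454, and the difference of mean log2 CPM stayed between −0.90 and −0.57 under every alternative run for it. AB205_0179520, also lowered, had 29.6, 38.7, 31.6, 46.8 and 41.4 CPM in C22 and 26.2, 24.9, 4.46, 9.84 and 18.7 in C32, beside 13.6, 17.2, 19.4, 16.02 and 15.3 in D22 and 15.1, 35.8, 8.06, 10.3 and 16.7 in D32. Of the 10 depleted tadpoles 9 were within the warm colonized range and D3203 within the cool colonized one, and the log2 fold change was −0.59 with a standard error of 0.29 and, over all genes, an edgeR adjusted p = 0.616.

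The raised members with the smallest p were AB205_0210520 and AB205_0196220. AB205_0210520 was the most abundant member, with 478, 365, 483, 378 and 203 normalized CPM in C22 and 659, 655, 1589, 1129 and 1266 in C32. It had 1035, 759, 759, 789 and 900.4 in D22 and 989, 646, 1106, 750.2 and 488 in D32. Every depleted tadpole was above every cool colonized tadpole, and 8 of 10 were within the warm colonized range. The log2 fold change of depleted over colonized was 0.37 with a standard error of 0.20 and, over all genes, an edgeR adjusted p = 0.674. AB205_0196220 had 132, 140.4, 182, 121 and 60.6 in C22 and 189, 199.7, 270.5, 258 and 189 in C32, beside 269, 259.8, 142, 218 and 233 in D22 and 167, 253, 252, 179.6 and 135 in D32. Its log2 fold change was 0.33 with a standard error of 0.18 and, over all genes, an edgeR adjusted p = 0.681, and 6 of 10 depleted tadpoles were within the warm colonized range, 4 within the cool colonized range. Neither gene passed the threshold.

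At each temperature the comparison of depleted with colonized tadpoles shares the C22 or C32 libraries with the rule, so these values too are partly fixed by the choice of members. D22 was above C22 in 16 of 18 raised members, with a median difference of 0.44 and a range of −0.11 to 1.21, and below it in 13 of 13 lowered members, with a median of −0.40 and a range of −1.25 to −0.18. D32 was below C32 in 18 of 18 raised members, with a median of −0.50 and a range of −1.76 to −0.15, and above it in 12 of 13 lowered members, with a median of 0.45 and a range of −0.16 to 0.87. D22 and C22 did not overlap, with D22 higher, in 3 of 18 raised members (1.57% of all genes) and, with D22 lower, in 2 of 13 lowered members (1.3% of all genes). D32 and C32 did not overlap for 1.42% of all genes, and with D32 lower they did not overlap in 1 raised member (0.708% of all genes) and in 0 lowered members with D32 higher.

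The tests of temperature itself used the same values as the rule and are stated as counts alone. Between C32 and C22, edgeR's quasi-likelihood test called 0 of 18 raised members, with 0.248% of all genes called higher, and 1 of 13 lowered members, with 0.342% called lower. Over both directions 0.59% of all genes were called. The member was AB205_0135170, and no member was called without C2201, C2206, C2207, C2208, C3204, C3207, C3208 or C3210. All 31 had an unadjusted p under 0.05, as did 20.9% of all genes, 9.93% higher and 10.9% lower. Between D32 and D22 no member was called, against 12.7% of all genes (6.39% higher and 6.28% lower), and none had an unadjusted p under 0.05, against 30.6%. Nor were the ranges of D32 and D22 apart in any member, as they were in 12.6% of all genes, 6.32% in each direction. The interaction of temperature and colonization, which asks whether the responses differ, passed in the quasi-likelihood test of edgeR for 0 of the 31 members and 0 of 8477 genes (0%), and the smallest adjusted p among members was 0.237. At an unadjusted p under 0.05 it held for 9 raised and 11 lowered members, against 12.9% of all genes (5.8% higher and 7.14% lower), and DESeq2 called 4 raised and 1 lowered members among 435 genes, with 24 genes and no member by edgeR's likelihood ratio test and 0 genes by limma voom. A difference of the response was thus not shown for any single member by the quasi-likelihood test.

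Which genes met the rule also depended on how libraries were scaled. With total counts in place of TMM factors, the median difference between D32 and D22 over all genes became 0.51, and that between C32 and C22 0.07. The 18 raised members kept a difference of 0.87 to 2.02 between C32 and C22 and the 13 lowered members one of −1.48 to −0.75, but the median between D32 and D22 became 0.63 over raised and 0.38 over lowered members. Under that scaling 4 raised and 15 lowered genes met the rule, sharing 0 and 1 genes with the members. RLE size factors gave 18 and 13 genes, 17 and 13 of them members. The near absence of a mean difference in depleted tadpoles is hence relative to the median gene, whose difference was 0.00041 by TMM and −0.02 by RLE. The 10 most abundant genes of a library held 26.2% to 32.0% of its counts in D22 and 23.4% to 26.4% in D32. Scaling by total counts does not adjust for such shares, so a median of 0.51 does not show that all genes rose.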

How the data were processed

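The submitters' processing notes name Trim Galore, BWA and StringTie, with versions not given in the sources used here, and reads were mapped to the draft genome of the bullfrog. The deposited table holds raw read counts as whole numbers, which the authors had filtered for low abundance. Counting strand and reads shared between related genes are not stated. Libraries held 11102195 to 22922461 counts.

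Counts were scaled by TMM in edgeR 4.0.16 (R 4.3.3), with a prior count of 2 for log2 CPM. The quasi-likelihood test covered all 8477 genes, and its p-values were adjusted by Benjamini–Hochberg with a threshold of 0.05: warm against cool in separate fits of 10 tadpoles per colonization group, and depleted against colonized and the interaction in a fit of all 4 groups by animal code. A standard error is the size of the log2 fold change divided by the root of F. The fits and the rule were tested on simulated data with known changes. For the rule, the changes were planted in well counted genes with little variation between tadpoles. That run does not show how the rule treats variable or rare genes. DESeq2 1.42.0, edgeR's likelihood ratio test and limma 3.58.1 (voom), other scalings, thresholds and each tadpole left out were alternatives.

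Members and lists were chosen with earlier results of these data known. Named genes are, of each list, the 2 with the widest difference between C32 and C22, the 2 with the smallest p for depleted against colonized, and the 2 with the widest gap between ranges over the larger SD. Gene lists by name were not used here.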

Additional observations from a re-analysis of the deposited data

Results flagged for a closer look

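For the 12 named genes, the normalized CPM of the 5 tadpoles of each group was examined for a tadpole far from the rest. Of 48 groups of values, 2 (4.17%) were flagged. The limit used flags about 1 in 20 groups of normally distributed values. That rate need not hold for CPM of genes that the rule chose from these same values, so it is no measure of chance here. AB205_0000035 had 1106 CPM in D3202, against 123 to 195 CPM in the other 4 warm depleted tadpoles. AB205_0003830 had 18.3 CPM in D3203, against 5.26 to 6.16 CPM in the other 4. No explanation was tested.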

How the results depend on the processing

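The number of members moved with every threshold. A minimum difference of 0.6 gave 27 raised and 27 lowered genes and one of 1.0 gave 9 and 7, while a maximum difference in depleted tadpoles of 0.2 gave 12 and 8 and one of 0.5 gave 34 and 24. Total counts gave 4 raised genes, and groups by the treatment fields gave 31 and 29, of which 0 and 2 were members. With 1 tadpole left out the rule gave 15 to 48 raised and 11 to 31 lowered genes. Leaving out a C22 or C32 tadpole makes the condition on overlap easier to meet, so these counts do not measure the influence of that animal alone. With a depleted tadpole left out there were 15 to 24 raised and 12 to 20 lowered genes. The raised count moved by over 1.5 times without C2204 (48), C3205 (41), C2208 (31) or C3204 (29), and the lowered count without C2201 or C2208 (21 each), C2204 (30), C2206 (25), C3204 (26), C3205 (31), C3210 (27) or D2202 (20). Of the members, 9 to 18 raised and 9 to 13 lowered ones remained. Without D3202 and D3203, chosen after seeing the data, there were 9 raised genes and a median D32 minus D22 difference of 0.50 over raised members. Total counts gave medians of 0.63 (raised) and 0.38 (lowered) for that difference. With 1 tadpole left out these medians ran from −0.00373 to 0.30 and from −0.19 to −0.00722.

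Calls of members for warm against cool colonized tadpoles are given with the share of all genes called, since the rule used this difference. They were 1 by the quasi-likelihood test (0.59% of all genes), 0 with total counts (0.189%) and 29 by DESeq2 (11.7%). The likelihood ratio test gave 13 (3.03%), limma voom 2 (0.755%) and edgeR's filterByExpr 3 (1.29%). All 4 groups in 1 fit gave 12 (3%), and with 1 tadpole left out there were 0 to 2 (9 to 127 of all genes). For depleted tadpoles, total counts gave 1 (18.8% of all genes) and every other alternative 0 (3.56% to 23.7%). For the interaction DESeq2 gave 5 (5.18% of all genes) and the others 0 (0% to 0.283%). For depleted against colonized tadpoles every alternative gave 0 members (0% to 3.99% of all genes). With the tadpole number as a replicate block, 0 members were called in any of the 4 comparisons (0% to 3.56% of all genes). The numbers name animals reared apart, and over the 12 pairs that share a number between groups the deviations had a median correlation of −0.03. Of 900 values of the named genes under alternatives, 895 moved by less than 1 SD between tadpoles of a group. Most of these alternatives left out 1 tadpole, which can hardly move a group mean that far, so the count does not show stability. Within that limit the difference between D32 and D22 of AB205_0031230 changed sign, from 0.10 to −0.36 without D2202. Depth limits the least abundant raised members, with 5 counts in a library.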
